A study of Homo sapiens with 14 samples.

Results

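The mRNA of 10 keratins was followed in CWR22RV1 cells, a human prostate cancer line, after treatment with inhibitors of fucosylation or sialylation. The members were KRT7, KRT8, KRT18, KRT19, KRT20, KRT23, KRT80, KRT5, KRT15 and KRT10. They were chosen by gene name, with earlier results of these data known. All 10 were found among the 27819 genes shared by the 4 count tables. There were 14 libraries of cells harvested after 72 h. Of these, 3 came from cells given the vehicle DMSO, 3 from cells with P-SiaFNEtoc at 2 μM and 3 from cells with SGN-2FF at 100 μM. Another 3 came from cells with Fucotrim I at a dose of 30 μM, and 2 from cells with Fucotrim II at a dose of 60 μM. Fucotrim I and Fucotrim II are rhamnose-1-phosphate derivatives aimed at GMDS, an enzyme of de novo GDP-fucose synthesis, SGN-2FF is 2-fluorofucose, and P-SiaFNEtoc is a carbamate inhibitor of sialyltransferases. All libraries came from 1 cell line, and the same DMSO libraries served in each comparison.

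Keratins are the intermediate filament proteins of epithelial cells. Each filament is built from pairs of a basic type II and an acidic type I keratin, so that neither type forms filaments alone. Luminal cells of the prostate are known for the simple epithelial keratins, with KRT8 (type II) and KRT18 (type I) as the primary pair, while basal cells are known for KRT5, KRT14 and KRT15.

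The libraries held 12553094 to 19981314 counts on the shared genes. Mitochondrially encoded genes took 5.98 to 7.03% of the counts with DMSO and 6.11 to 6.83% with P-SiaFNEtoc. Their share was 8.27 to 8.69% with SGN-2FF, 8.67 to 14.2% with Fucotrim I and 12.2 to 17.0% with Fucotrim II. The part of this share in the results below was not tested, but each call of a member was also made with these genes removed. Of the 8 prostate identity genes, KLK3, which encodes prostate-specific antigen, was at 30.6 CPM with DMSO (CPM, counts per 1000000 counts of a library after TMM scaling).

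Reads of some members could belong to more than one gene. KRT8 (hg38, chr12:52897187-52949954, minus strand, 8 exons in the canonical transcript) and KRT18 (chr12:52948871-52952906, plus strand, 7 exons) are neighbours on opposite strands. Annotated transcripts of each reach into the other, and 7.63% of the exon bases of KRT8 and 17.1% of those of KRT18 overlap. KRT7 (chr12:52232520-52252186, plus strand) shares 7.85% of its exon bases with KRT7-AS and KRT87P on the opposite strand. KRT10 (chr17:40818117-40822614, minus strand) shares 2.82% with KRT10-AS1. The libraries were stranded, but the strand setting of the counting was not given in the sources used here. Of the 100-base windows of the canonical KRT8 transcript, 9.02% also occur exactly at 4 other places in the genome, so KRT8 counts may be incomplete or shared. No such window was found for KRT7, KRT18, KRT19 or KRT10.

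Promoters from RefSeq (GRCh38.p14) were found for 4 members only, and 3 are shown. Their mRNA levels in these cells are very different, with KRT10 transcribed and KRT5 and KRT20 at or near 0 counts. The KRT8 promoter is not shown, because its entry lies 21393 bases from the start of the canonical KRT8 transcript. Each line gives the 100 bases before the annotated start, 5′ to 3′ on the strand of the gene. Capitals mark matches to TATAAA or ATAAAA, letters of the TATA box, which were searched on both strands and overlap each other where TATAAAA occurs.
KRT10, chr17:40822615-40822714, minus strand: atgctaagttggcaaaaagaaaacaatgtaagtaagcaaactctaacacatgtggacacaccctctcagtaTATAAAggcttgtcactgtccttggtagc
KRT5, chr12:52520395-52520494, minus strand: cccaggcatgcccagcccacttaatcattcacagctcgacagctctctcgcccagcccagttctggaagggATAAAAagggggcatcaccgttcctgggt
KRT20, chr17:40885243-40885342, minus strand: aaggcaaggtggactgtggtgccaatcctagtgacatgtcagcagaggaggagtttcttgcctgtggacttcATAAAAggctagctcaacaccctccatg
The match begins 29 bases before the start in KRT10 and KRT5 and 28 bases before it in KRT20. Across 35116 RefSeq promoters, 8.86% hold either motif in the same window. The KRT8 entry that is not shown holds neither motif, and the remaining members had no entry. The matches are a description of letters only and do not give a share for keratins.

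Taken by level in DMSO, the 10 keratins fell into KRT18, KRT19 and KRT8 at the top, KRT10 and KRT7 well below them, a low pair and 3 that could not be judged. Per kb of annotated exon, mean CPM with DMSO was 131 ± 4.82 (SD, n = 3) for KRT18, 98.0 ± 6.82 for KRT19 and 69.3 ± 3.22 for KRT8. KRT10 was at 7.16 ± 0.635 and KRT7 at 6.35 ± 0.194 CPM per kb, and their libraries overlapped. KRT15, at 0.183 ± 0.0761 CPM per kb, and KRT80, at 0.172 ± 0.0276, also overlapped. KRT18 had the highest mean with each gene length tried, but the order below it depended on the length. With the length of the longest coding transcript, KRT8 (196 CPM per kb) came above KRT19 (165), and KRT7 (15.6) above KRT10 (7.16). Together KRT7, KRT8, KRT18 and KRT19 held 98.4 to 99.0% of the counts of all members in every library.

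KRT20, the type I keratin of intestinal and urothelial surface cells, and KRT23 (type I) had 0 counts in all 14 libraries. A count of 0 allows up to 3 counts, which corresponds to 0.144 CPM in the deepest library and 0.251 CPM in the library with the highest limit, counting error only. KRT5, the type II keratin of basal cells, had 1, 1 and 0 counts with DMSO, 5 counts in replicate 1 of SGN-2FF and 0 in the 10 other libraries. These 3 genes did not pass the filter on low counts in any comparison and are too low to judge. The basal keratin KRT14, the partner of KRT5, reached at most 2 counts.

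The remaining 7 members could be tested in each comparison, and no called member was lower than with DMSO. With Fucotrim I, 5 of 7 were called higher (edgeR's quasi-likelihood test, Benjamini-Hochberg adjusted p under 0.05), where 21.6% of the 14188 genes tested were called higher and 22.1% lower. Either way, 43.8% of the genes were called. With Fucotrim II, 3 of 7 were called higher, where 25.6% of 14617 genes were called higher, 25.7% lower and 51.4% in all. With SGN-2FF 4 of 7 were called higher, against 11.5% of 14312 genes higher, 9.08% lower and 20.6% in all. With P-SiaFNEtoc 5 of 7 were called higher, against 9.02% of 14259 genes higher, 7.33% lower and 16.3% in all. Treated libraries all lay above DMSO for 4, 3, 5 and 5 members with Fucotrim I, Fucotrim II, SGN-2FF and P-SiaFNEtoc. Among all genes tested this share was 25.2%, 33.8%, 16.9% and 16.6%, and libraries did not overlap in either direction for 52.6%, 67.6%, 36.4% and 33.7% of genes. The members and the gene lists below were chosen with earlier results of these data known. The shares of all genes therefore stand beside the counts as a description, without a test. KRT7, KRT8 and KRT18 were called higher with all 4 inhibitors. The median log2 fold change of the 7 members was 0.55 with Fucotrim I, 0.45 with Fucotrim II, 0.45 with SGN-2FF and 0.40 with P-SiaFNEtoc, while the median over all genes tested was between 0.00042 and 0.0075. Doses differed between inhibitors, so their values are set side by side without a test. In bulk RNA, more cells with a keratin and more keratin mRNA per cell cannot be told apart.

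**Figure D1:**
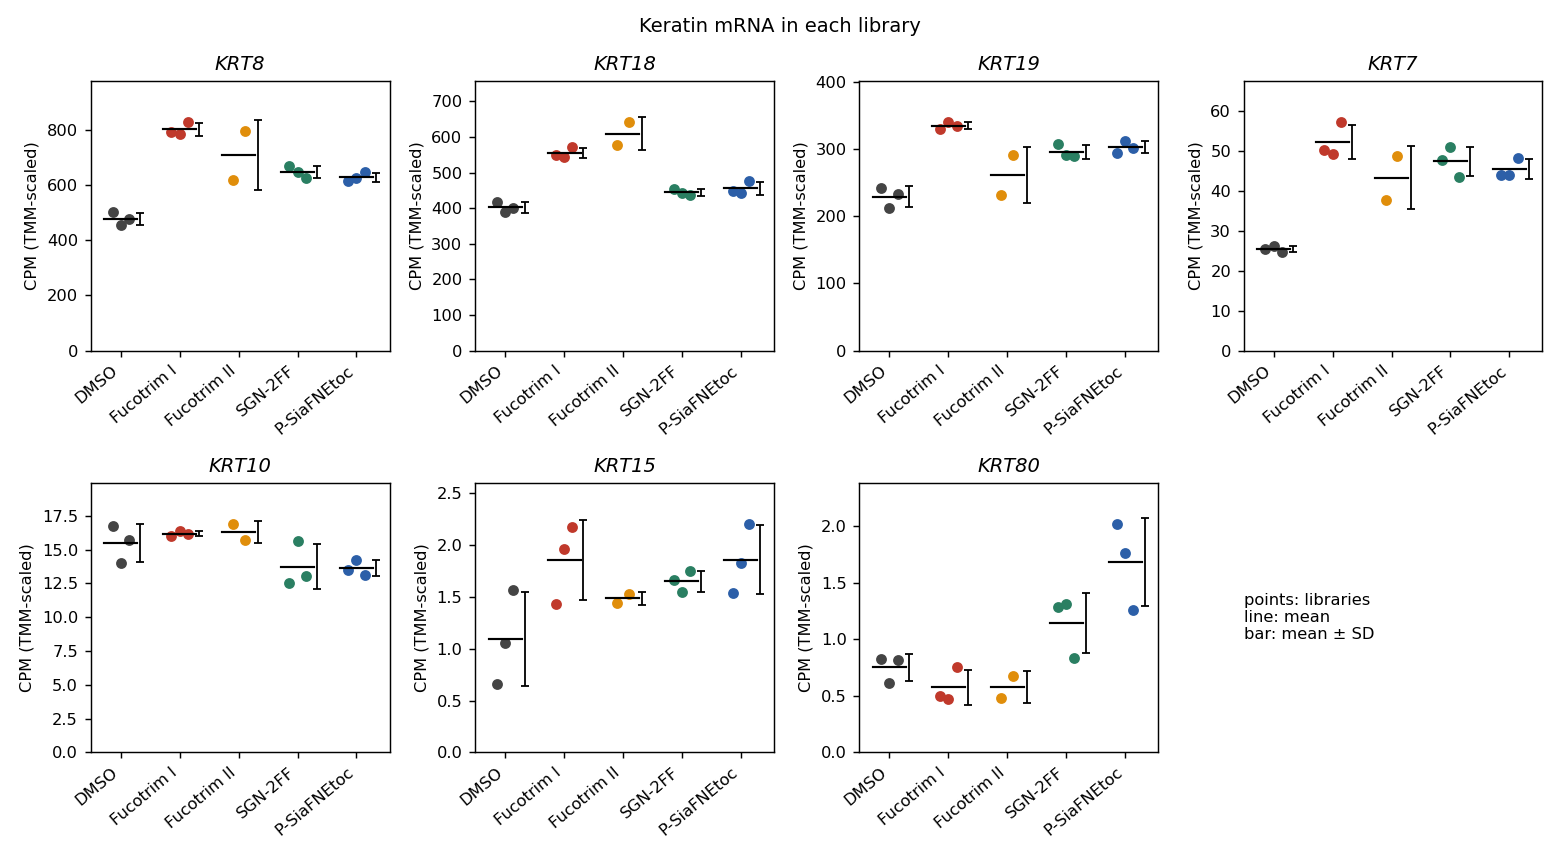
CPM after TMM scaling (y axis, linear from 0, one scale per gene) of the 7 testable keratins in each library of the 5 groups (x axis); points are libraries, lines are means and bars are mean ± SD (n = 3, or 2 for Fucotrim II). Every treated library lies above the DMSO libraries for KRT8, KRT18 and KRT7, whereas KRT10 overlaps DMSO with all 4 inhibitors.

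KRT8, the type II keratin of the primary simple pair, was raised by all 4 inhibitors. It stood at 500, 456 and 475 CPM in the DMSO libraries and at 791, 783 and 827 CPM with Fucotrim I. The Fucotrim II libraries held 619 and 796 CPM, those of SGN-2FF 667, 647 and 624 CPM, and those of P-SiaFNEtoc 614, 623 and 645 CPM. All 11 treated libraries lay above the highest DMSO library, and the Fucotrim II pair was the most widely spread. The rise was 1.68-fold with Fucotrim I (log2 fold change 0.75, SE 0.05, adjusted p = 3.06e-10 by edgeR's quasi-likelihood test) and 1.48-fold with Fucotrim II (0.56, SE 0.10, adjusted p = 0.00112). It was 1.37-fold with SGN-2FF (0.45, SE 0.04, adjusted p = 8.46e-10) and 1.32-fold with P-SiaFNEtoc (0.40, SE 0.04, adjusted p = 1.99e-08).

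KRT18, the type I partner of KRT8, also rose with each inhibitor, by smaller amounts with SGN-2FF and P-SiaFNEtoc. Its DMSO libraries held 418, 389 and 400 CPM, and those of Fucotrim I 550, 542 and 571 CPM. The values were 577 and 642 CPM with Fucotrim II, 455, 443 and 437 CPM with SGN-2FF, and 448, 443 and 477 CPM with P-SiaFNEtoc. No treated library overlapped DMSO, although the lowest SGN-2FF library was close to the highest DMSO library. The rise was 1.38-fold with Fucotrim I (log2 fold change 0.47, SE 0.05, adjusted p = 1.44e-07 by edgeR's quasi-likelihood test) and 1.51-fold with Fucotrim II (0.59, SE 0.07, adjusted p = 0.000119). With SGN-2FF it was 1.12-fold (0.16, SE 0.04, adjusted p = 0.0024) and with P-SiaFNEtoc 1.14-fold (0.19, SE 0.04, adjusted p = 0.00175). The SGN-2FF call was lost when all 14 libraries were fitted together (adjusted p = 0.0614 by the same test).

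KRT7, a type II keratin of ductal and glandular epithelia, had the largest fold change among the 4 simple keratins that could be tested, with each of the inhibitors. It was at 25.4, 26.2 and 24.6 CPM with DMSO. The libraries held 50.3, 49.1 and 57.1 CPM with Fucotrim I, 37.6 and 48.8 CPM with Fucotrim II, 47.6, 50.8 and 43.5 CPM with SGN-2FF, and 44, 44 and 48.3 CPM with P-SiaFNEtoc. Every treated library was above DMSO, and the lowest was replicate 1 of Fucotrim II. Fold changes were 2.05 with Fucotrim I (log2 1.04, SE 0.07, adjusted p = 1.25e-09 by edgeR's quasi-likelihood test), 1.69 with Fucotrim II (0.76, SE 0.11, adjusted p = 0.000372), 1.88 with SGN-2FF (0.91, SE 0.07, adjusted p = 6.26e-11) and 1.79 with P-SiaFNEtoc (0.84, SE 0.06, adjusted p = 3.38e-11).

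KRT19, a type I keratin with a very short tail that is found in simple and ductal epithelia, rose with 3 of the inhibitors. The DMSO libraries held 243, 212 and 233 CPM, and those of Fucotrim I 329, 340 and 335 CPM. They held 307, 291 and 289 CPM with SGN-2FF and 294, 311 and 302 CPM with P-SiaFNEtoc, all above DMSO. The 2 Fucotrim II libraries did not resemble each other, one at 232 CPM within the DMSO range and one at 291 CPM above it. The rise was 1.47-fold with Fucotrim I (log2 fold change 0.55, SE 0.05, adjusted p = 6.53e-08 by edgeR's quasi-likelihood test), 1.30-fold with SGN-2FF (0.38, SE 0.04, adjusted p = 3.69e-07) and 1.32-fold with P-SiaFNEtoc (0.40, SE 0.04, adjusted p = 8.04e-08). With Fucotrim II the log2 fold change was 0.18 (SE 0.10, approximate 95% interval -0.01 to 0.37, adjusted p = 0.141). That value rested on single libraries, since it was 0.34 (adjusted p = 0.000246) without replicate 1 and 0.0031 (adjusted p = 0.974) without replicate 2, each with a single Fucotrim II library assumed to vary like DMSO. With all 14 libraries in 1 fit it was 0.19 and passed the threshold (adjusted p = 0.0304).

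**Figure D2:**
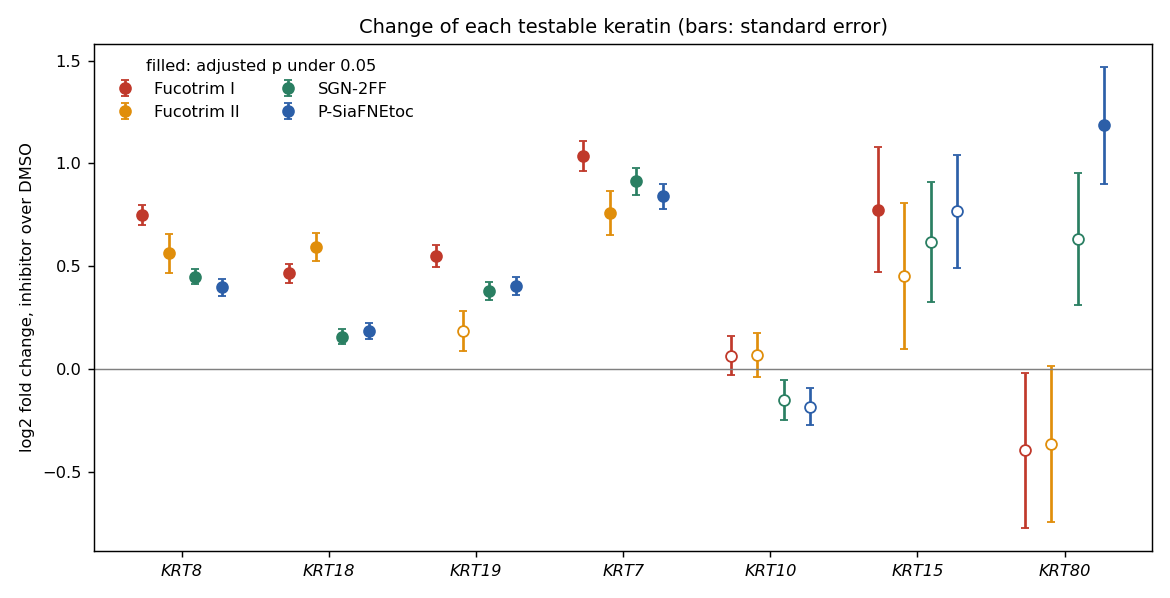
Log2 fold change over DMSO (y axis) of the 7 testable keratins (x axis) for the 4 inhibitors, with bars of 1 standard error from edgeR's quasi-likelihood fit; filled points have an adjusted p under 0.05. KRT8, KRT18 and KRT7 are filled for all 4 inhibitors, KRT10 for none, and the bars of KRT15 and KRT80 are several times longer than those of the abundant keratins.

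Summed over KRT7, KRT8, KRT18 and KRT19, the simple keratin mRNA was 1134 ± 52.0 CPM with DMSO (SD, n = 3). The sum was 1742 ± 41.6 CPM with Fucotrim I (n = 3), 1621 ± 222 CPM with Fucotrim II (n = 2), 1434 ± 41.7 CPM with SGN-2FF (n = 3) and 1431 ± 37.7 CPM with P-SiaFNEtoc (n = 3). The lowest treated library, at 1393 CPM, was above the highest DMSO library, at 1186 CPM.

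KRT10, the type I keratin of suprabasal epidermis, did not pass the test with any inhibitor. Its libraries held 16.7, 14 and 15.7 CPM with DMSO, 16.0, 16.3 and 16.2 CPM with Fucotrim I, and 16.9 and 15.7 CPM with Fucotrim II. They held 12.5, 15.6 and 13.1 CPM with SGN-2FF and 13.5, 14.3 and 13.1 CPM with P-SiaFNEtoc, and each treated group overlapped DMSO. The log2 fold change was 0.07 with Fucotrim I (approximate 95% interval -0.12 to 0.25, adjusted p = 0.606 by edgeR's quasi-likelihood test) and 0.07 with Fucotrim II (-0.14 to 0.28, adjusted p = 0.62). It was -0.15 with SGN-2FF (-0.34 to 0.04, adjusted p = 0.294) and -0.18 with P-SiaFNEtoc (-0.35 to -0.01, adjusted p = 0.164). The signs of the values for both Fucotrims were not stable, since they fell to -0.0046 and -0.0065 without DMSO replicate 2.

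KRT15, the type I keratin of basal cells, was detected at 12 to 35 counts per library. It had 12, 19 and 25 counts with DMSO, 20, 29 and 26 with Fucotrim I, 24 and 27 with Fucotrim II, 22, 26 and 23 with SGN-2FF, and 32, 29 and 35 with P-SiaFNEtoc. On the CPM scale the DMSO libraries were widely spread at 0.660, 1.06 and 1.57, and every treated group overlapped them. KRT15 was called higher with Fucotrim I (log2 fold change 0.77, SE 0.30, adjusted p = 0.0445 by edgeR's quasi-likelihood test). That call was lost without DMSO replicate 1 (adjusted p = 0.221) or 2 (0.0899), without Fucotrim I replicate 2 (0.114) or 3 (0.168), and with DESeq2 (0.115). The log2 fold change was 0.45 (adjusted p = 0.312) with Fucotrim II and 0.62 (adjusted p = 0.134) with SGN-2FF. With P-SiaFNEtoc it was 0.77 (SE 0.27, adjusted p = 0.0532), and it passed the threshold without DMSO replicate 3 (adjusted p = 0.021) or P-SiaFNEtoc replicate 1 (0.0475). Without DMSO replicate 1 the adjusted p by the same test rose to 0.24.

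KRT80, a type II keratin outside the primary pairs, had 7 to 42 counts per library. The DMSO libraries had 15, 11 and 13 counts, Fucotrim I 7, 7 and 9, Fucotrim II 8 and 12, SGN-2FF 17, 22 and 11, and P-SiaFNEtoc 42, 28 and 20. On the CPM scale these were 0.825, 0.611 and 0.815 with DMSO against 2.02, 1.77 and 1.26 with P-SiaFNEtoc, so the latter lay above DMSO without overlap. The P-SiaFNEtoc difference passed the test (2.27-fold, log2 fold change 1.19, SE 0.28, adjusted p = 0.00406 by edgeR's quasi-likelihood test), and DESeq2 gave it no adjusted p. With SGN-2FF the libraries also lay above DMSO, at 1.29, 1.31 and 0.836 CPM, but the difference did not pass the test (log2 0.63, SE 0.32, adjusted p = 0.165). With Fucotrim I and Fucotrim II the log2 values were -0.39 (adjusted p = 0.418) and -0.36 (adjusted p = 0.447), with overlapping libraries.

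The proportion of the keratins to one another was examined as count ratios within a library, which scaling cannot alter. These ratios were chosen after the values had been seen, and 12 exact two-sided permutation tests were made, whose smallest possible p is 0.1. The ratio of KRT8 to KRT18 counts was 1.197, 1.173 and 1.189 in the DMSO libraries. It was 1.44, 1.44 and 1.45 with Fucotrim I, 1.47, 1.46 and 1.43 with SGN-2FF, and 1.37, 1.41 and 1.35 with P-SiaFNEtoc, all above DMSO (exact permutation p = 0.1 each, 0.12 after Benjamini-Hochberg adjustment). The Fucotrim II libraries lay on either side of DMSO, at 1.07 and 1.24 (exact permutation p = 0.8, adjusted 0.8). Thus with 3 inhibitors KRT8 counts were higher relative to those of its partner in every library.

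The ratio of KRT19 to KRT18 counts separated Fucotrim II from DMSO in the other direction. It was 0.581, 0.544 and 0.582 with DMSO and only 0.402 and 0.453 with Fucotrim II. The libraries of the other inhibitors were above DMSO, at 0.599, 0.627 and 0.587 with Fucotrim I, 0.674, 0.656 and 0.662 with SGN-2FF, and 0.655, 0.703 and 0.633 with P-SiaFNEtoc. Each of these 4 comparisons had an exact permutation p of 0.1 and an adjusted value of 0.12. The ratio of KRT7 to KRT8 counts was 0.0507 to 0.0574 with DMSO and above that range in all 11 treated libraries, from 0.0608 with Fucotrim II to 0.0785 with SGN-2FF. Its exact permutation p was 0.2 (adjusted 0.218) with Fucotrim II and 0.1 (adjusted 0.12) with each of the others.

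**Figure D3:**
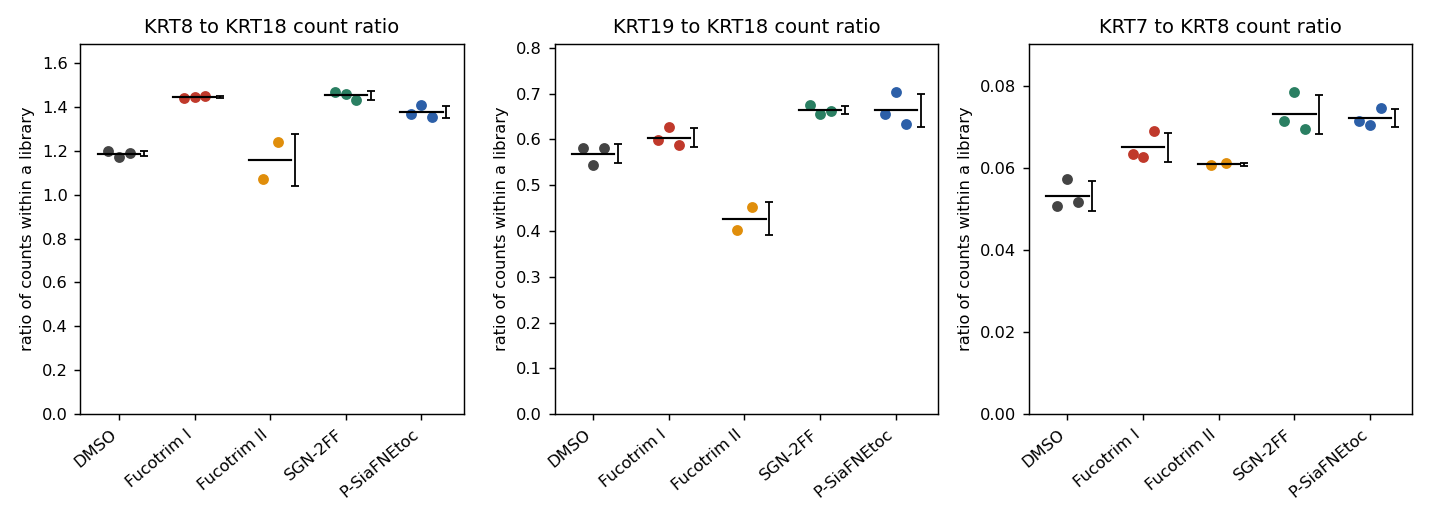
Ratios of raw counts within each library (y axes, linear from 0) for KRT8 to KRT18, KRT19 to KRT18 and KRT7 to KRT8 in the 5 groups (x axes); points are libraries, lines are means and bars are mean ± SD. Fucotrim II straddles DMSO for KRT8 to KRT18 and lies below it for KRT19 to KRT18, at a mean of 0.427 against 0.569 with DMSO.

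Across the 14 libraries, log2 CPM of KRT7 and KRT8 had a Pearson correlation of 0.91, KRT8 and KRT18 of 0.84, KRT8 and KRT19 of 0.86 and KRT18 and KRT19 of 0.47. KRT10 correlated with these 4 keratins between -0.14 and 0.44. These are descriptions across libraries that share treatment groups. Among 11836 genes whose mean count was 50 or more, the 3 with the pattern most like KRT8 were HOXB13 (r = 0.96), a homeobox factor of the prostate, CIAO3 (0.96), which takes part in iron-sulfur protein assembly, and FUOM (0.95), the fucose mutarotase. The genes most like KRT8, KRT18 and KRT19 were picked over these same libraries, so a shared order of groups is not a separate observation. Mean HOXB13 levels were 230 CPM with DMSO, 380 with Fucotrim I, 364 with Fucotrim II, 310 with SGN-2FF and 286 with P-SiaFNEtoc, the same order of groups as KRT8. FUOM was at 17.5 CPM with DMSO and between 21.5 CPM with P-SiaFNEtoc and 28.4 CPM with Fucotrim I. Nearest to KRT18 were PPP1R16A (0.98), CST3, which encodes cystatin C (0.98), and PICK1 (0.98), and nearest to KRT19 were the endothelin gene EDN2 (0.92), DBNL (0.92) and GSTM4 (0.92). CST3 was highest with Fucotrim II, at 192 CPM against 98.2 CPM with DMSO, as KRT18 was.

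The other keratins were close to silent. Of 45 further keratin genes, 19 had 0 counts in all libraries and 44 had at most 10 counts in every library. The 6 with the highest mean with DMSO were the hair keratins KRT81, KRT86 and KRT83, and KRT222, KRT14 and KRT75. KRT81 (chr12:52285913-52291534, minus strand) was the only one that could be tested, and 19.5% of its 100-base windows also occur elsewhere in the genome, so its counts are uncertain. It had 12, 15 and 12 counts with DMSO, 13, 16 and 12 with Fucotrim I, 12 and 21 with Fucotrim II, 27, 43 and 43 with SGN-2FF, and 34, 19 and 27 with P-SiaFNEtoc. On the CPM scale the Fucotrim I, SGN-2FF and P-SiaFNEtoc libraries lay above DMSO, and those of Fucotrim II overlapped it. KRT81 was called higher with SGN-2FF (log2 fold change 1.81, SE 0.27, adjusted p = 1.81e-05 by edgeR's quasi-likelihood test) and with P-SiaFNEtoc (1.02, SE 0.28, adjusted p = 0.0127), the latter lost without P-SiaFNEtoc replicate 1 or 3 and given no adjusted p by DESeq2. With Fucotrim I and Fucotrim II the log2 values were 0.43 (adjusted p = 0.291) and 0.35 (adjusted p = 0.432).

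Keratin filaments are anchored at desmosomes, and 13 of 18 listed genes for desmosomes and their linkers could be tested. With Fucotrim I, 4 rose and 5 fell, with Fucotrim II 3 rose and 6 fell, with SGN-2FF 1 rose and 5 fell, and with P-SiaFNEtoc 2 rose and 2 fell. Among all genes, 21.6% rose and 22.1% fell with Fucotrim I, 25.6% and 25.7% with Fucotrim II, 11.5% and 9.08% with SGN-2FF, and 9.02% and 7.33% with P-SiaFNEtoc, so the rises with Fucotrim II and SGN-2FF were near the background. The 3 rises with Fucotrim II became 1 without DMSO replicate 2, and the 5 falls with SGN-2FF became 3 without DMSO replicate 3, SGN-2FF replicate 1 or SGN-2FF replicate 2. The SGN-2FF rise, EVPL, was lost without DMSO replicate 2, SGN-2FF replicate 1 or SGN-2FF replicate 2. With P-SiaFNEtoc the rises became 4 without DMSO replicate 1, and the falls became 0 without P-SiaFNEtoc replicate 2 and 1 without P-SiaFNEtoc replicate 1 or any DMSO replicate. The plakophilin PKP1 fell from 7.11 ± 1.29 CPM with DMSO to 2.92 ± 1.02 with Fucotrim I (log2 fold change -1.28, adjusted p = 3.97e-05 by edgeR's quasi-likelihood test) and 3.54 ± 0.753 with Fucotrim II (-1.01, adjusted p = 0.00272). Its relative PKP3 rose from 190 CPM to 243 CPM with Fucotrim I (0.36, adjusted p = 0.00184) and 253 CPM with Fucotrim II (0.41, adjusted p = 0.00902), the latter lost without Fucotrim II replicate 2. PKP2 fell with all 4 inhibitors, by 0.31 on the log2 scale with Fucotrim I (adjusted p = 0.00769), 0.69 with Fucotrim II (0.000754), 0.40 with SGN-2FF (0.000794) and 0.24 with P-SiaFNEtoc (0.0262, lost in 4 of 6 fits without 1 library). PKP4 was likewise called lower with all 4, at -0.31, -0.63, -0.17 and -0.17 in the same order. DSP and DSG2 were called lower with each fucosylation inhibitor but not with P-SiaFNEtoc. The limits given above for the SGN-2FF and P-SiaFNEtoc falls cover these genes. The desmosomal cadherin DSC2 rose with P-SiaFNEtoc from 31.1 to 43.0 CPM (0.48, adjusted p = 1.97e-05), and with SGN-2FF the linkers EVPL (envoplakin) and PPL (periplakin) were at 0.18 (adjusted p = 0.0232) and -0.54 (adjusted p = 0.0194, lost in 4 of 6 fits without 1 library). The list's median log2 fold change was -0.07, -0.23, -0.10 and -0.0053 for Fucotrim I, Fucotrim II, SGN-2FF and P-SiaFNEtoc.

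Of 13 other intermediate filament genes 8 could be tested, and they showed no common direction. The numbers called higher and lower were 1 and 2 with Fucotrim I, 0 and 2 with Fucotrim II, 3 and 0 with SGN-2FF, and 2 and 2 with P-SiaFNEtoc. Among all genes, 21.6% and 22.1% were called higher and lower with Fucotrim I, and 25.6% and 25.7% with Fucotrim II. The shares were 11.5% and 9.08% with SGN-2FF and 9.02% and 7.33% with P-SiaFNEtoc. Several of the small counts of this list rested on single libraries. The 3 rises with SGN-2FF became 0 without DMSO replicate 3 or SGN-2FF replicate 2 and 1 without DMSO replicate 1, DMSO replicate 2 or SGN-2FF replicate 1, and 1 fall was called without DMSO replicate 2. The Fucotrim I rise became 2 without DMSO replicate 1 or Fucotrim I replicate 2. With P-SiaFNEtoc, the 2 rises became 1 without any single library other than DMSO replicate 1. The 2 falls became 0 without P-SiaFNEtoc replicate 2 and 1 without any other single library but DMSO replicate 2. Vimentin (VIM), the filament of mesenchymal cells, was low at 9.70 CPM with DMSO, and its call with SGN-2FF (11.9 CPM, log2 fold change 0.29, adjusted p = 0.0415 by edgeR's quasi-likelihood test) was lost in 6 of 6 fits without 1 library. Lamin B1 (LMNB1), of the nuclear lamina, fell from 352 CPM to 281 with Fucotrim I (-0.32, adjusted p = 9.63e-06) and to 216 with Fucotrim II (-0.71, adjusted p = 2.38e-05). LMNB1 was also called lower with P-SiaFNEtoc (-0.14, adjusted p = 0.00767), a call lost without P-SiaFNEtoc replicate 2. Its SGN-2FF libraries lay below DMSO too, but it was not called there (-0.03, adjusted p = 0.587). With P-SiaFNEtoc, lamin A/C (LMNA) rose (0.19, adjusted p = 0.00518, lost without P-SiaFNEtoc replicate 3) and synemin (SYNM) was at -0.24 (adjusted p = 0.0416, lost in 5 of 6 fits without 1 library), and the neurofilament NEFH rose with Fucotrim I (0.37, adjusted p = 1.46e-05).

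**Figure D4:**
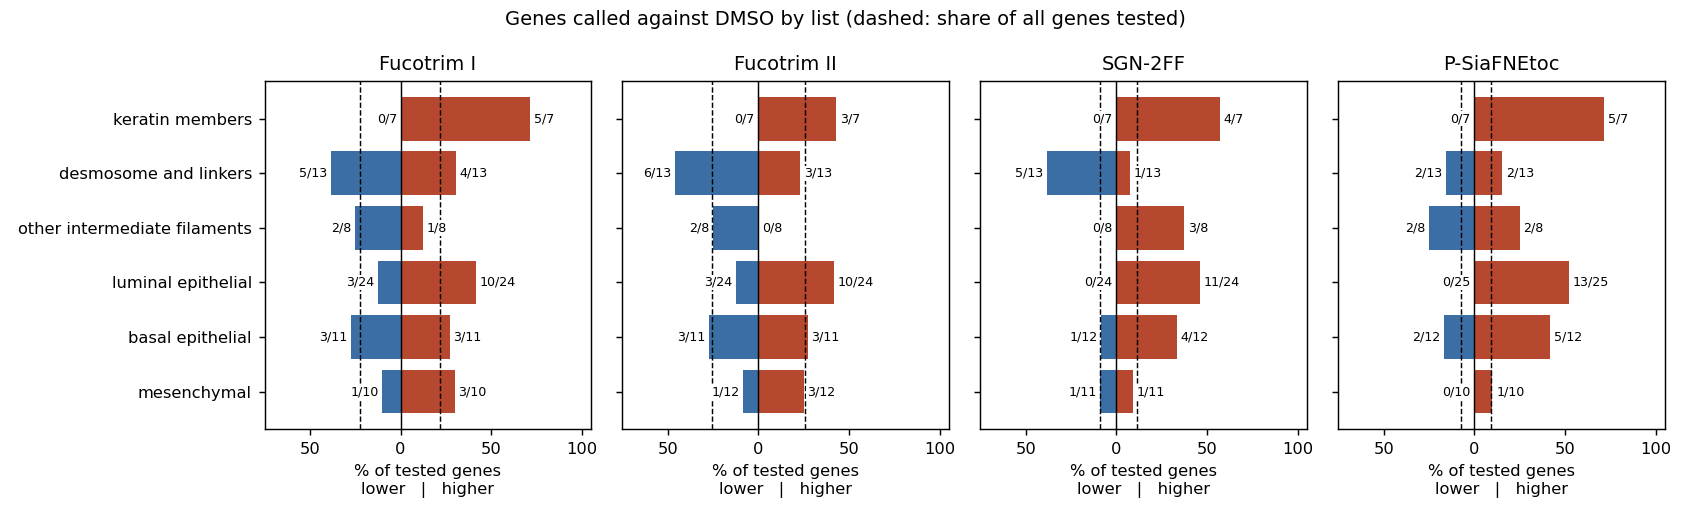
Share of tested genes called higher (red, right) or lower (blue, left) than DMSO (x axis, percent) for 6 gene lists (y axis) with each inhibitor; numbers are called over tested genes, and dashed lines are the shares of all genes tested. Keratin members extend to the right only, at 5, 3, 4 and 5 of 7, whereas desmosome genes extend to both sides.

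Genes of the luminal epithelial state were called higher more often than lower. Of the 26 listed, 24 were tested with the fucosylation inhibitors and 25 with P-SiaFNEtoc. With Fucotrim I and with Fucotrim II 10 rose and 3 fell, with SGN-2FF 11 rose and 0 fell, and with P-SiaFNEtoc 13 rose and 0 fell. The shares of all genes that rose were 21.6%, 25.6%, 11.5% and 9.02% in that order, and 22.1%, 25.7%, 9.08% and 7.33% fell. The SGN-2FF rises numbered 7 without DMSO replicate 3 or SGN-2FF replicate 2, and its falls 1 without DMSO replicate 2. HOXB13 rose with all 4 inhibitors, by 0.73 on the log2 scale with Fucotrim I (adjusted p = 4.39e-09 by edgeR's quasi-likelihood test). CD24, a surface glycoprotein of luminal cells, rose from 15.7 CPM to 25.1 with SGN-2FF (0.68, adjusted p = 1.66e-07) and 26.7 with P-SiaFNEtoc (0.77, adjusted p = 6.38e-08). The mucin MUC1 rose with Fucotrim II from 2.01 to 4.35 CPM (1.10, adjusted p = 0.00106). OVOL1, a transcription factor of epithelial differentiation, fell with Fucotrim I (-0.73, adjusted p = 0.000542) and Fucotrim II (-0.59, adjusted p = 0.00852). The list's median log2 fold change lay between 0.13 and 0.15 in the 4 comparisons.

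Basal epithelial genes were called in both directions. The numbers called higher and lower were 3 and 3 of 11 tested with Fucotrim I and with Fucotrim II, 4 and 1 of 12 with SGN-2FF, and 5 and 2 of 12 with P-SiaFNEtoc. With Fucotrim I and Fucotrim II these counts were near the background of 21.6% higher and 22.1% lower and of 25.6% higher and 25.7% lower. With SGN-2FF and P-SiaFNEtoc the rises were above the background of 11.5% and 9.02% higher, where 9.08% and 7.33% of genes were lower. The 4 with SGN-2FF became 2 without SGN-2FF replicate 1 and 1 without replicate 2, and the 5 with P-SiaFNEtoc became 3 without P-SiaFNEtoc replicate 2. The 2 falls with P-SiaFNEtoc became 1 without any single library other than P-SiaFNEtoc replicate 1. The list's median log2 fold change was -0.18 with Fucotrim I, -0.26 with Fucotrim II, 0.22 with SGN-2FF and 0.30 with P-SiaFNEtoc. The summed level of the 17 listed genes was 474 to 494 CPM with DMSO and higher in each treated group, from 533 to 557 CPM with P-SiaFNEtoc up to 706 to 813 CPM with Fucotrim II, so for both Fucotrims the sum and the median differed in sign. The defining basal keratins KRT5 and KRT14 stayed at 0 to 5 and 0 to 2 counts. The basal keratin KRT15, at 12 to 35 counts, had positive log2 fold changes with each inhibitor. They were 0.77 with Fucotrim I, 0.45 with Fucotrim II, 0.62 with SGN-2FF and 0.77 with P-SiaFNEtoc. Only that with Fucotrim I was called, and the call was lost without some single libraries. CD44, a hyaluronan receptor, rose from 74.2 to 116 CPM with Fucotrim I (log2 fold change 0.65, adjusted p = 7.69e-09 by edgeR's quasi-likelihood test), while caveolin CAV1 fell with Fucotrim I (-0.89, adjusted p = 0.000343) and Fucotrim II (-1.12, adjusted p = 0.000617).

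Markers of other cell states were also counted. Of the mesenchymal genes, 3 of 10 rose and 1 fell with Fucotrim I, 3 of 12 rose and 1 fell with Fucotrim II, 1 of 11 rose and 1 fell with SGN-2FF, and 1 of 10 rose and 0 fell with P-SiaFNEtoc. The shares of all genes that rose were 21.6%, 25.6%, 11.5% and 9.02%, near the counts of rises. The shares of all genes that fell were 22.1%, 25.7%, 9.08% and 7.33%. The 3 rises with Fucotrim I became 1 without DMSO replicate 2, and the fall with Fucotrim II became 2 without DMSO replicate 2. N-cadherin (CDH2) fell with Fucotrim I (log2 fold change -1.45, adjusted p = 7.11e-06 by edgeR's quasi-likelihood test), Fucotrim II (-1.65, adjusted p = 0.000791) and SGN-2FF (-0.63, adjusted p = 0.0122), the last lost without DMSO replicate 3 or SGN-2FF replicate 1. Transgelin (TAGLN) rose with Fucotrim I (0.78, adjusted p = 5.18e-05) and Fucotrim II (1.27, adjusted p = 6.25e-05). For the neuroendocrine genes the same shares of all genes apply, 21.6%, 25.6%, 11.5% and 9.02% higher, with 7.33% lower with P-SiaFNEtoc. Of 5 tested neuroendocrine genes, 2, 4, 1 and 1 rose with Fucotrim I, Fucotrim II, SGN-2FF and P-SiaFNEtoc. Only SCG3 fell, with P-SiaFNEtoc (-0.16, adjusted p = 0.0196, lost in 4 of 6 fits without 1 library). With single libraries left out the rises numbered 0 to 2, 2 to 4, 0 to 2 and 1. In the main fits the 4 of 5 with Fucotrim II was above its share of 25.6%. Chromogranin B (CHGB) was the largest rise with each inhibitor, most with Fucotrim II (0.68, adjusted p = 6.4e-05). It was at 0.26 with Fucotrim I (adjusted p = 0.0059, lost without Fucotrim I replicate 3) and 0.29 with P-SiaFNEtoc (adjusted p = 0.00019). With SGN-2FF it was at 0.18 (adjusted p = 0.0198, lost in 3 of 6 fits without 1 library). Immune and endothelial markers summed to 5.09 to 9.01 CPM over all libraries, 1 of 9 could be tested, and it was CD68, called with SGN-2FF (0.46, adjusted p = 0.0165) but not in 4 of 6 fits without 1 library. Their part in the keratin results was not tested.

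Of the 8 prostate identity genes, 6 were called higher with each inhibitor and 0 were called lower. By comparison, 21.6% of all genes were called higher with Fucotrim I, 25.6% with Fucotrim II, 11.5% with SGN-2FF and 9.02% with P-SiaFNEtoc. In the same order, 22.1%, 25.7%, 9.08% and 7.33% of all genes were called lower. The rise was not uniform. With each fucosylation inhibitor, 1 identity gene that was not called had every treated library below DMSO. With single libraries left out, the rises with P-SiaFNEtoc numbered 4 to 6. The largest rise of the list in each comparison was that of the serine protease TMPRSS2 with Fucotrim I (29.2 to 75.9 CPM, log2 fold change 1.38, adjusted p = 1.51e-12 by edgeR's quasi-likelihood test) and Fucotrim II (1.41, adjusted p = 3.31e-06). It was that of KLK3 with SGN-2FF (30.6 to 75.8 CPM, 1.32, adjusted p = 9.1e-15) and of the kallikrein KLK2 with P-SiaFNEtoc (59.1 to 99.8 CPM, 0.76, adjusted p = 2.08e-12).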

How the data were processed

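RNA-seq of CWR22RV1 cells came as 4 tables. Each table held the libraries of 1 inhibitor and repeated the 3 DMSO libraries, with identical counts. The authors prepared stranded mRNA libraries, used Cutadapt for trimming, HISAT2 for alignment to hg38 and featureCounts for counting, all in Galaxy 22.01. The deposited values are raw counts, as whole numbers without normalization. The handling of reads with several positions is not given in the sources used here. The SGN-2FF table lists genes by NCBI number only, and these were matched through the other tables.

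Each inhibitor was fitted alone with DMSO in edgeR 4.0.16 under R 4.3.3 (filterByExpr with minimum count 10 and total 15, TMM, robust quasi-likelihood test), and p-values were adjusted by the Benjamini-Hochberg method over all genes tested, with a threshold of 0.05. The fit was tested on simulated data. DESeq2 1.42.0 and limma 3.58.1 (voom), other filters and scalings, single libraries left out and a replicate block were alternatives. The study states 3 biological repeats for each condition, but only 2 Fucotrim II libraries were available here. Named genes were all members, the 6 highest other keratins with DMSO, the called genes with the largest rise and fall of each list (mean count 50 or more), and the 3 genes most like KRT8, KRT18 and KRT19. PKP4, DSP and DSG2 were named in addition, beside PKP2. Exons and positions came from GENCODE v44. Members and lists were chosen with earlier results of these data known. Intervals and limits cover counting or library spread only.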

Additional observations from a re-analysis of the deposited data

Results flagged for a closer look

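A few values moved in opposite directions with different inhibitors, with every library of one group above and every library of the other below DMSO. The differences between inhibitors were not tested, since doses differed. The ratio of KRT19 to KRT18 counts, 0.569 with DMSO, was below it with Fucotrim II (0.427) and above it with Fucotrim I (0.604), SGN-2FF (0.664) and P-SiaFNEtoc (0.664). DSC2 had a log2 fold change of 0.48 with P-SiaFNEtoc and -0.37 with Fucotrim II. OVOL1 libraries lay above DMSO with P-SiaFNEtoc (log2 0.23, not called) and below with Fucotrim I (-0.73) and Fucotrim II (-0.59). The laminin gene LAMA3 rose by 0.34 with Fucotrim I and 1.203 with Fucotrim II and was at -0.46 with SGN-2FF and -0.65 with P-SiaFNEtoc, while its partner LAMB3 was at 0.51 with SGN-2FF and 0.94 with P-SiaFNEtoc and below DMSO with Fucotrim I. The fibronectin gene FN1 rose by 0.49 with SGN-2FF and 0.60 with P-SiaFNEtoc and lay below DMSO with Fucotrim II. LAMA3 and LAMB3 encode chains of the same laminin.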

How the results depend on the processing

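Of 414 recomputed log2 fold changes of the members, 397 kept their direction and their side of the threshold, 7 lost the call, 8 gained it and 2 changed sign, and DESeq2 gave no adjusted p for 4 more. The sign changes were those of KRT10 without DMSO replicate 2, and with single libraries left out its log2 fold change ranged from -0.0046 to 0.13 with Fucotrim I and from -0.0065 to 0.12 with Fucotrim II. The number of members called ranged with single libraries left out from 4 to 5 with Fucotrim I, 3 to 4 with Fucotrim II, 4 with SGN-2FF and 5 to 6 with P-SiaFNEtoc. Pairing by title number was not uniform. Same-numbered deviations correlated at 0.025 to 0.26 with Fucotrim I, -0.16 to 0.14 with SGN-2FF and -0.067 to 0.087 with P-SiaFNEtoc. With Fucotrim II they correlated at -0.41 and -0.31. Its library names carry other numbers, and deviations of 2 libraries mirror each other, so their sign follows the numbering. With a replicate block the numbers of members called were 5, 3, 4 and 6. By the numbers in its library names Fucotrim II had 4. There KRT19 was called (adjusted p = 0.0222 by edgeR's quasi-likelihood test) and the 2 pairs correlated at 0.16 and 0.41. The ratio of KRT8 to KRT18 with Fucotrim II over DMSO was 0.905 to 1.05, the higher value without Fucotrim II replicate 1. Levels per kb with DMSO depended on the length. With the longest coding transcript they were 15.6 for KRT7, 196 for KRT8, 237 for KRT18, 165 for KRT19 and 0.291 for KRT15. With the canonical transcript, a length chosen after seeing the data like the left-out libraries of the ratios, they were 15.6, 267, 285, 165 and 0.639. Without mitochondrially encoded genes they were 6.98 for KRT7, 76.2 for KRT8, 144 for KRT18, 108 for KRT19 and 7.87 for KRT10. Of all genes tested, 2946 were called with SGN-2FF and 2331 with P-SiaFNEtoc. These counts were 1609 and 1171 at an adjusted p under 0.01, 1942 and 1482 with DESeq2, 1695 and 998 with all libraries in 1 fit, and 1642 and 1516 without replicate 2 of that inhibitor. KRT5, KRT20 and KRT23 were limited by depth, and KRT15 and KRT80 by counts of 7 to 42.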
